A study of Mus musculus with 12 samples.

Results

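Klf2, Klf4 and Klf5 are 3 of the 19708 transcript entries kept from a table of normalized RNA levels in mouse cells, picked by mapping RefSeq identifiers to gene symbols. The mapping uses no expression value, but the 3 genes were chosen with earlier results of these data known. Each gene had 1 entry: NM_008452 for Klf2, NM_010637 for Klf4 and NM_009769 for Klf5. All 3 passed the filter on low levels that left 12704 entries for testing. The measurements were made in Mettl3 knockout (KO) and wild-type (WT) embryonic stem cells (ESCs), and in KO and WT embryoid bodies (EBs), all of strain C57BL/6. Each of these 4 conditions was collected at 0, 4 and 8 h after actinomycin, a drug that stops transcription. This gives 12 libraries with 1 library per group and no replicate. RNA was read from its 3′ poly(A) end, and the strand was kept. The ESCs, of both genotypes, had grown without serum in N2B27 with LIF and the inhibitors CHIR99021 (against GSK3) and PD0325901 (against MEK). The EBs, of both genotypes, had been kept in serum medium for 8 to 21 days, and the day of collection is not stated. The labels do not say how many KO lines or clones were used, nor which part of Mettl3 was deleted. The design asks how the loss of Mettl3 bears on RNA levels and on RNA decay in each cell type.

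KLF proteins are zinc finger transcription factors that bind GC-rich and CACCC sites in DNA. In mouse ESCs, Klf2, Klf4 and Klf5 act with overlapping roles to hold the naive pluripotent state, the state that LIF and the inhibitor pair maintain. Mettl3 encodes the enzyme of the complex that places N6-methyladenosine (m6A) in mRNA, most often at GGACT and related motifs near the stop codon, and reader proteins such as Ythdf2 direct marked mRNA to decay. AU-rich elements built around ATTTA in the 3′ UTR are a separate class of decay signal, found in many short-lived mRNAs. Once transcription stops, the level that remains after some hours shows how fast the existing RNA is lost.

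Klf2 lies on chromosome 8, at 72319062 to 72321654 on the plus strand of GRCm38 (mm10). Klf4 lies on chromosome 4, at 55527137 to 55532475 on the minus strand. Klf5 lies on chromosome 14, at 99298691 to 99313412 on the plus strand. These positions come from RefSeq. The sequence windows given next come from GENCODE transcripts of the same build. They show what each mRNA carries of the 2 motifs, GGACT and ATTTA, searched on the sense strand only. For each gene they show the GGACT match nearest the stop codon and the 3′ UTR window with the most ATTTA matches. The motif is in capitals, and the motifs cannot overlap each other.
Klf2 GGACT: aacgtgttGGACTtcatcctc
Klf2 ATTTA: acagactgctATTTAttggacctta
Klf4 GGACT: acatgcccGGACTtacaaaat
Klf4 ATTTA: tgtaatataaATTTAagcaaacttc
Klf5 GGACT: cttgacgtGGACTcgtttttt
Klf5 ATTTA: agctttatagATTTAtcacaagttt

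The Klf2 GGACT window, at chr8:72319477-72319497, lies in the coding sequence, and it is the only GGACT in the transcript. Klf2's ATTTA window, at chr8:72320990-72321014, lies in the 3′ UTR, 81 bases after the stop codon. The 3′ UTR of Klf2 is 737 bases long, with 1 ATTTA and 0 GGACT. Motifs related to GGACT were not searched in any of these genes. The Klf4 GGACT window, at chr4:55527794-55527814, lies in the 3′ UTR, 319 bases after the stop codon. Klf4's ATTTA window is at chr4:55527260-55527284, 851 bases after it. The 3′ UTR of Klf4 is 982 bases long, with 1 match of each motif, and its whole transcript holds 5 GGACT. The Klf5 GGACT window, at chr14:99313747-99313767, and its ATTTA window, at chr14:99313932-99313956, both lie in a 3′ UTR of 1707 bases with 2 GGACT and 4 ATTTA. RefSeq ends Klf5 1624 bases short of the GENCODE end, so 0 of its 3′ UTR matches lie inside the RefSeq extent. Which end these libraries read cannot be told from the table.

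Neither motif sets the genes apart by presence alone. Over 12268 tested entries with a matched 3′ UTR, the median length was 995.5 bases. Of these, 67.1% held at least 1 ATTTA and 60.2% at least 1 GGACT in the 3′ UTR, and 92.5% held a GGACT somewhere in the transcript. At least 5 GGACT in the transcript, as in Klf4, were found in 34.0%. At least 4 ATTTA in the 3′ UTR, as in Klf5, were found in 27.1%. A match says only that the letters are there, not that the site is methylated or bound.

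The deposited levels summed to 10449707 to 11086748 per library in KO ESCs and 10057266 to 11085581 in WT ESCs. The sums were 6249922 to 7076737 in KO EBs and 3673848 to 8311484 in WT EBs. Taking 50 steps of the file's smallest unit as 1 read, an inference from the values, gives 208874 to 666805 read equivalents per library. Every 95% interval printed after a level, a share or a ratio is exact on such read equivalents and covers counting error only. Mettl3 itself had levels of 98.1, 65.4 and 41.8 in KO ESCs at 0, 4 and 8 h, against 251, 64.8 and 113 in WT ESCs. Among EBs, the KO libraries had 16.8, 40.7 and 83.9 and the WT libraries 175, 86.0 and 77.4. At 0 h it was lower in the KO library of both cell types, but not at 4 h in ESCs nor at 8 h in EBs. Reads at the 3′ end can lie outside a deleted part, so the labels are neither checked nor contradicted by these levels. Among 1420 entries of gene families expected to be silent in these cells, 6.97 to 9.15% had a level above 0 in KO ESC libraries and 6.69 to 9.51% in WT ESC libraries. In EBs the share was 34.0 to 36.2% in KO libraries and 26.7 to 34.1% in WT libraries. The 99th percentile of those entries lay between 57.5 and 123 over the 12 libraries, which sets the size of level that can be read with care.

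Klf2 had the widest genotype difference of the trio after actinomycin, though not at 0 h: it was abundant in KO ESCs at every time and nearly gone from WT ESCs after 4 h of actinomycin. Its level in KO ESCs was 13479.5 (12362 to 14670), 8516 and 5555 at 0, 4 and 8 h. In WT ESCs it was 5549.9 (4872 to 6295), 214 (96.2 to 412) and 125 (32.7 to 326). The KO library at 8 h thus held as much Klf2 as the untreated WT library. The last 2 WT values rest on 8.66 and 3.82 read equivalents. The one at 8 h stands at 1.27 times the 99th percentile of the silent families in its library. The ratio of KO to WT was 2.43 (2.08 to 2.84) at 0 h, 39.7 (20.4 to 89.5) at 4 h and 44.5 (16.8 to 171) at 8 h. In these single libraries the ratio was thus above 1 before the drug and far larger after it. Of all tested entries, 89.9% had a lower KO to WT difference at 0 h. The interval holds no error between cultures, and the fitted difference at 0 h, given below, did not pass.

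In EBs Klf2 followed the same order, at lower levels at 0 h as deposited. KO EBs had 5969 (5486 to 6483), 2912 and 1949 at 0, 4 and 8 h. WT EBs had 3836 (3385 to 4331), 307 (185 to 478) and 151 (67.2 to 290). Here the KO value at 8 h was below the untreated WT value. The WT EB value at 8 h rests on 8.56 read equivalents and stands at 1.22 times the 99th percentile of the silent families in its library. The ratio of KO to WT was 1.56 (1.34 to 1.81) at 0 h, 9.50 (5.97 to 16.0) at 4 h and 12.9 (6.55 to 29.5) at 8 h. The last ratio depends on library scale: it was 7.61 (3.85 to 17.3) with equal sums, 8.58 with median-ratio scaling and 5.77 (2.92 to 13.2) with scaling to ribosomal protein genes. In bulk samples such as these, fewer cells that express a gene and less RNA per cell cannot be told apart.

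**Figure D1:**
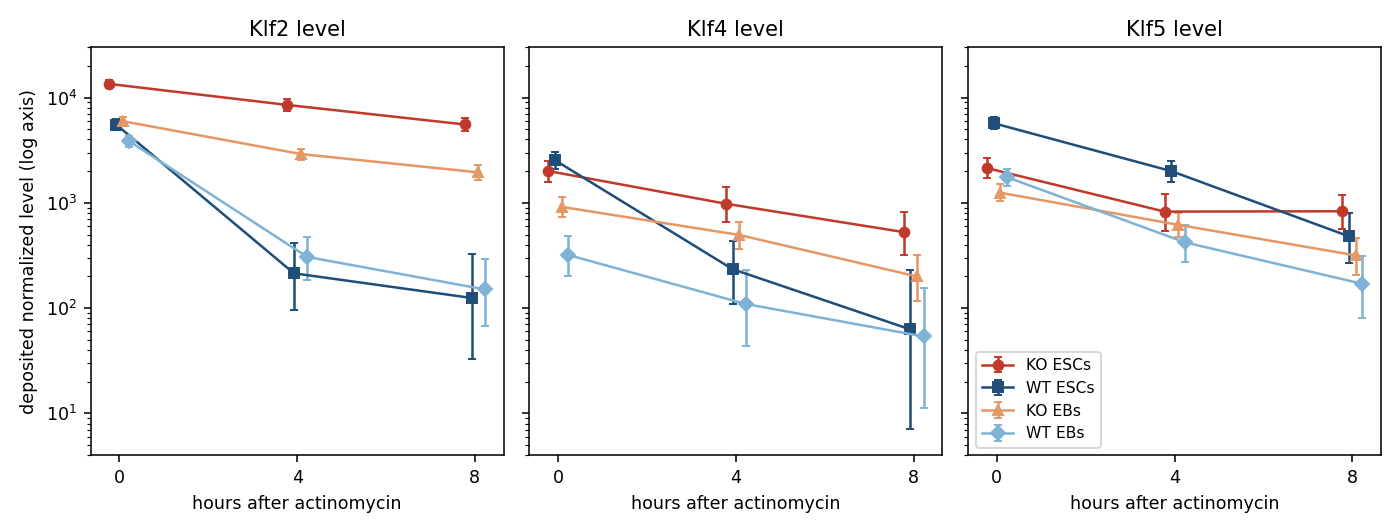
Normalized level (log scale) of Klf2, Klf4 and Klf5 at 0, 4 and 8 h after actinomycin in KO ESCs, WT ESCs, KO EBs and WT EBs, 1 library per point, with bars for 95% counting intervals. Klf2 in WT ESCs drops to 214 at 4 h while it stands at 8516 in KO ESCs, and Klf5 starts lower in KO ESCs (2142) than in WT ESCs (5717).

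Klf4, which LIF signalling induces through Stat3 in ESCs, did not share the difference at 0 h in ESCs. Its level in KO ESCs was 2008 (1592 to 2499), 981 and 528 at 0, 4 and 8 h. In WT ESCs it was 2547 (2095 to 3067), 235 (110 to 438) and 62.8 (7.12 to 232). The value at 8 h in WT ESCs rests on 1.92 read equivalents and lies below the 99th percentile of the silent families in that library. The ratio of KO to WT was 0.788 (0.584 to 1.06) at 0 h, an interval that takes in equal levels. It was 4.18 (1.96 to 9.80) at 4 h and 8.40 (1.99 to 79.2) at 8 h. In EBs, as deposited, Klf4 was higher in KO at each time. KO EBs had 917 (734 to 1132), 496 and 199.9, and WT EBs had 320.1 (200.02 to 486), 109 and 53.8. The ratios were 2.86 (1.77 to 4.82), 4.53 (2.01 to 12.1) and 3.71 (1.08 to 19.4). The ratio at 8 h was 2.18 (0.635 to 11.4) with equal sums, 2.46 (0.717 to 12.9) with median-ratio scaling and 1.66 (0.482 to 8.66) with ribosomal protein scaling, and each of these intervals takes in equal levels. The WT EB values at 4 and 8 h rest on 6.80 and 3.06 read equivalents. They stand at 1.13 and 0.437 times the 99th percentile of the silent families in their libraries.

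Klf5, which is active in ESCs and also in the trophectoderm of the early embryo, went the other way before the drug. Its level in KO ESCs was 2142 (1712 to 2648), 826 and 833 at 0, 4 and 8 h. In WT ESCs it was 5717 (5029 to 6473), 2003 and 481. The ratio of KO to WT was 0.375 (0.290 to 0.481) at 0 h and 0.412 (0.253 to 0.652) at 4 h, both below 1. At 8 h it was 1.73 (0.903 to 3.47), and the interval takes in equal levels. In EBs Klf5 had 1250 (1034 to 1497), 619 and 317 in KO, and 1755 (1454 to 2099.5), 422 and 170.3 in WT. The ratio was 0.712 (0.547 to 0.926) at 0 h, 1.47 (0.910 to 2.42) at 4 h and 1.86 (0.864 to 4.37) at 8 h. The EB ratios of Klf5 turn on library scale: at 0 h it was 0.836 (0.643 to 1.09) with equal sums, and at 8 h 1.09 (0.508 to 2.57) with equal sums and 0.831 (0.386 to 1.95) with ribosomal protein scaling. No direction can be read for Klf5 in EBs from single libraries.

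**Figure D2:**
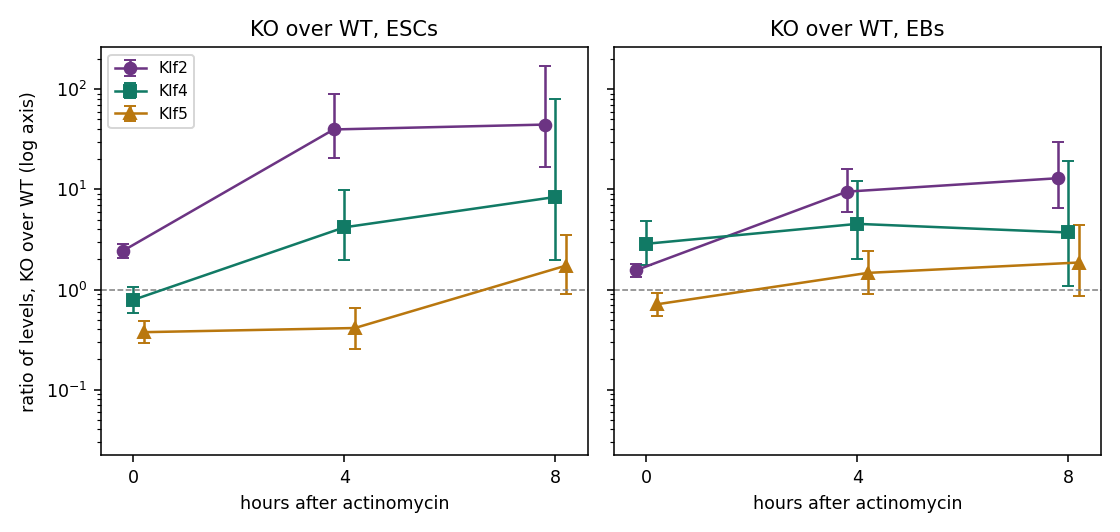
Ratio of the KO level to the WT level (log scale) for each gene at 0, 4 and 8 h, in ESCs and in EBs, with 95% counting intervals and a line at equal levels. In ESCs Klf2 reaches 39.7 at 4 h and 44.5 at 8 h, Klf4 crosses from 0.788 to above 1, and Klf5 stays below 1 until 8 h.

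The share of the 0 h level that was left describes loss relative to library scale, which is not given, and not an absolute amount. In KO ESCs at 4 h, the upper quartile over entries with at least 10 read equivalents at 0 h was 125%. For Klf2, 63.2% (54.3 to 73.4%) was left at 4 h in KO ESCs, against 3.86% (1.71 to 7.54%) in WT ESCs. At 8 h the shares were 41.2% (34.9 to 48.5%) in KO ESCs and 2.25% (0.585 to 5.96%) in WT ESCs. In KO EBs 48.8% (42.1 to 56.5%) and 32.6% (27.3 to 38.9%) were left at 4 and 8 h, against 7.99% (4.74 to 12.7%) and 3.92% (1.73 to 7.68%) in WT EBs. The counting intervals of KO and WT stay clear of each other in both cell types and at both times. Among the entries with at least 10 read equivalents at 0 h, only 0.376% had a lower share than Klf2 at 4 h in WT ESCs and 0.625% in WT EBs. In KO ESCs 22.6% had a lower share, and in KO EBs 14.3%. Klf2 thus stood at the short-lived extreme of the WT libraries, and among the faster but not the extreme transcripts of the KO libraries.

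For Klf4 the shares were parted in ESCs and overlapped in EBs. In KO ESCs 48.9% (31.0 to 75.2%) was left at 4 h and 26.3% (15.2 to 43.5%) at 8 h, against 9.21% (4.20 to 17.9%) and 2.47% (0.276 to 9.33%) in WT ESCs. In KO EBs it was 54.1% (37.0 to 78.1%) and 21.8% (12.1 to 37.1%), against 34.2% (12.1 to 83.8%) and 16.8% (3.29 to 55.5%) in WT EBs. The wide WT EB intervals come from few reads, so a difference in decay of Klf4 in EBs was not detectable at this depth.

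For Klf5 the split came late in ESCs. At 4 h 38.5% (23.7 to 60.7%) was left in KO ESCs and 35.0% (26.9 to 45.2%) in WT ESCs, with intervals that overlap. At 8 h it was 38.9% (24.9 to 59.2%) in KO ESCs and 8.41% (4.61 to 14.2%) in WT ESCs. In KO EBs 49.6% (35.6 to 68.4%) and 25.4% (16.0 to 38.9%) were left at 4 and 8 h, against 24.1% (15.1 to 37.0%) and 9.70% (4.47 to 18.6%) in WT EBs. For comparison, the median share over all entries with enough reads at 0 h was 95.1% and 90.1% at 4 and 8 h in KO ESCs, and 83.3% and 68.0% in WT ESCs. It was 84.8% and 72.1% in KO EBs, and 59.5% and 34.4% in WT EBs. Each share of each gene lay below the median of its library. The low WT EB medians go with library sums of 8311484, 6056954 and 3673848 at 0, 4 and 8 h. When every library was scaled to an equal sum, the median share in WT EBs was 81.6% at 4 h and 77.8% at 8 h. With that scaling, at 8 h, 8.88% of Klf2, 38.0% (7.44 to 126%) of Klf4 and 21.9% of Klf5 was left.

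**Figure D3:**
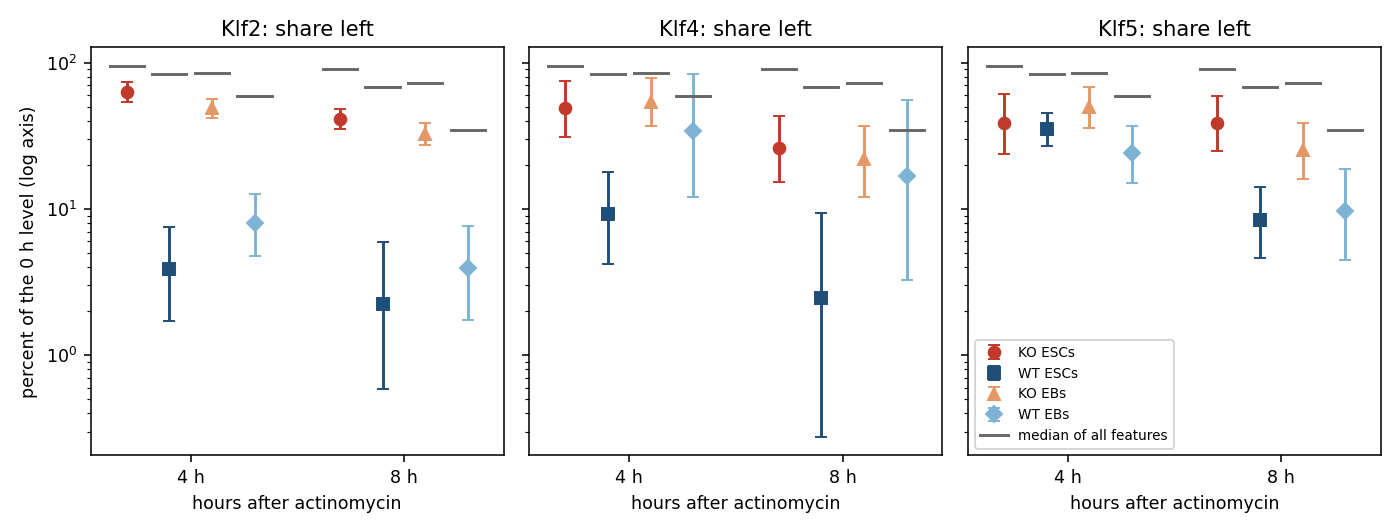
Percent of the 0 h level left at 4 and 8 h for each gene in KO ESCs, WT ESCs, KO EBs and WT EBs, with 95% counting intervals, beside the median of all entries with at least 10 read equivalents at 0 h. Klf2 keeps 63.2% at 4 h in KO ESCs and 3.86% in WT ESCs, and each gene lies below the median in each library.

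Levels over the 3 times and slopes over hours were tested with limma, which borrows the spread of each gene's libraries around straight lines, 1 line per condition. Errors are limma's standard errors, p-values were adjusted by the Benjamini-Hochberg method over all 12704 entries, and 0.05 was the threshold. The difference in mean log2 level between KO and WT ESCs was 3.97 ± 0.45 for Klf2 (limma adjusted p = 5.79e-05) and 1.53 ± 0.32 for Klf4 (limma adjusted p = 0.00519), so both were higher in KO. It was -0.63 ± 0.27 for Klf5 (limma adjusted p = 0.132), which did not pass. Over all entries, 10.9% were called higher and 3.27% lower in KO ESCs, with a median difference of 0.18. In EBs the difference was 2.49 ± 0.45 for Klf2 (limma adjusted p = 0.00234), 1.78 ± 0.32 for Klf4 (limma adjusted p = 0.00220) and 0.31 ± 0.27 for Klf5 (limma adjusted p = 0.611). Of all entries, 7.66% were called higher and 1.56% lower in KO EBs, with a median of 0.09. A fit without a 0 h or 8 h library takes the level of that condition from its 4 h library alone. Leaving out the KO ESC library of 0 h or that of 8 h ended the call of Klf4 in ESCs (1.48 in both fits). Leaving out the KO EB library of 0 h or 8 h ended those of Klf2 (2.34) and Klf4 (1.91) in EBs. The call of Klf2 in ESCs held without any single library, at 3.32 to 5.27.

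These means mix untreated and treated libraries, and the fitted lines show how much each end gives. Read at 0 h, the fitted log2 difference in ESCs was 1.92 ± 0.71 for Klf2 (limma adjusted p = 0.272) and -0.10 ± 0.50 for Klf4 (limma adjusted p = 0.965). Read at 8 h, it was 6.02 ± 0.71 for Klf2 (limma adjusted p = 0.000145) and 3.16 ± 0.50 for Klf4 (limma adjusted p = 0.00128). For Klf5 it was -1.73 ± 0.42 at 0 h (limma adjusted p = 0.0884) and 0.46 ± 0.42 at 8 h (limma adjusted p = 0.567). The calls for Klf2 and Klf4 in ESCs thus rest on the treated libraries. In EBs the fitted difference at 0 h was 1.00 ± 0.71 for Klf2 (limma adjusted p = 0.754) and 1.65 ± 0.50 for Klf4 (limma adjusted p = 0.238). At 8 h it was 3.98 ± 0.71 for Klf2 (limma adjusted p = 0.00208) and 1.90 ± 0.50 for Klf4 (limma adjusted p = 0.0210).

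Each of the 3 genes fell over time in WT cells by test, and none passed in KO cells. In WT ESCs the slope, in log2 level per hour, was -0.67 ± 0.10 for Klf2 (limma adjusted p = 0.00152), -0.65 ± 0.07 for Klf4 (limma adjusted p = 0.000348) and -0.44 ± 0.06 for Klf5 (limma adjusted p = 0.000827). Over all entries 5.35% fell and 0.157% rose in WT ESCs. In KO ESCs the slopes were -0.16 ± 0.10, -0.24 ± 0.07 and -0.17 ± 0.06 for Klf2, Klf4 and Klf5 (limma adjusted p = 0.621, 0.243 and 0.320). There only 0.0315% of all entries fell, which is 4 entries. In WT EBs the slopes were -0.57 ± 0.10 for Klf2 (limma adjusted p = 0.00112), -0.30 ± 0.07 for Klf4 (limma adjusted p = 0.00566) and -0.41 ± 0.06 for Klf5 (limma adjusted p = 0.000349). There 26.7% of all entries fell and 0.126% rose, so a call in WT EBs was common. In KO EBs the slopes were -0.20 ± 0.10, -0.27 ± 0.07 and -0.24 ± 0.06 (limma adjusted p = 0.681, 0.254 and 0.218). No entry was called in KO EBs by limma (0%), while 978 had an unadjusted p under 0.05. Without the 0 h library, all 3 WT slopes lost their call in ESCs (-0.18, -0.44 and -0.51 for Klf2, Klf4 and Klf5) and in EBs (-0.25, -0.23 and -0.32). Without the 8 h library, Klf5 did in ESCs (-0.38), and Klf4 (-0.37) and Klf5 (-0.51) did in EBs. With equal sums, the WT EB slopes of Klf2 and Klf5 still passed and that of Klf4 (-0.17) did not, while the number of entries called with either sign went to 304, against 3410 as deposited.

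A slope that passes in WT and misses in KO is not yet a difference between them. The difference of slopes, KO minus WT, was 0.51 ± 0.14 log2 per hour for Klf2 in ESCs (95% interval 0.22 to 0.81, limma adjusted p = 0.178). It was 0.41 ± 0.10 for Klf4 (limma adjusted p = 0.133) and 0.27 ± 0.08 for Klf5 (limma adjusted p = 0.228). In EBs it was 0.37 ± 0.14 for Klf2 (limma adjusted p = 0.165), 0.03 ± 0.10 for Klf4 (95% interval -0.18 to 0.24, limma adjusted p = 0.941) and 0.17 ± 0.08 for Klf5 (limma adjusted p = 0.312). None passed the adjusted threshold in either cell type, where 0.0394% of all entries in ESCs (5 entries) and 1.19% in EBs (151 entries) were called with a shallower slope in KO. The medians over all entries were 0.04 in ESCs and 0.08 in EBs. A straight line describes Klf2 in WT cells poorly, since most of the loss came before 4 h, and that bend adds to its error. Without the WT ESC library of 8 h, the difference for Klf2 in ESCs was 1.00 and passed (limma adjusted p = 0.0386). The counting intervals of the shares, which part KO from WT for Klf2, hold no error between cultures.

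**Figure D4:**
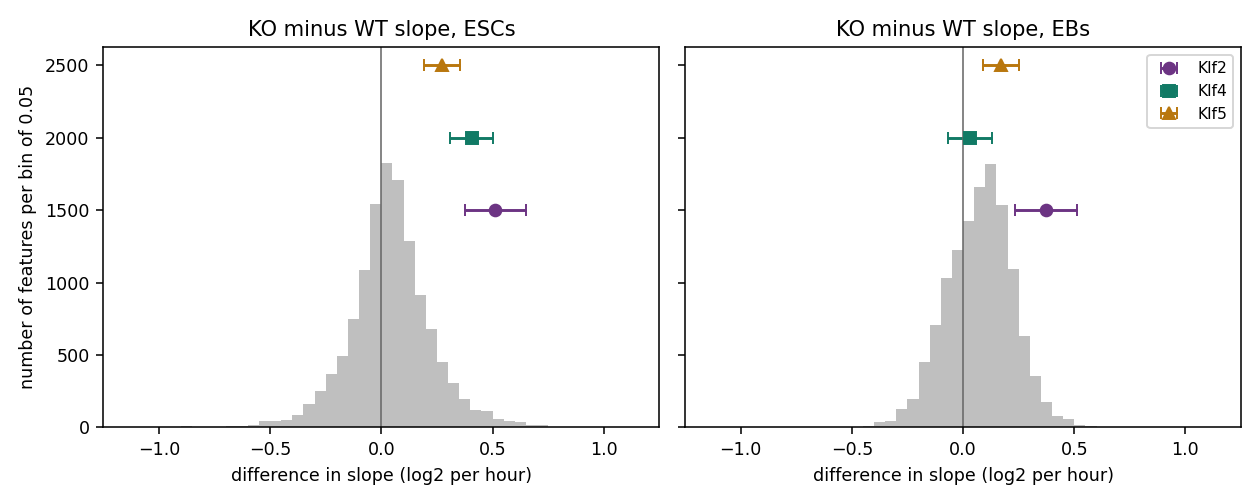
Difference of slopes, KO minus WT, in log2 level per hour: bars count the 12704 tested entries per bin of 0.05, with extremes gathered in the end bins, for ESCs and EBs, and points mark the 3 genes at heights that carry no meaning. Klf2 at 0.51 in ESCs and 0.37 in EBs lies on the right flank, and Klf4 in EBs at 0.03 lies in the middle.

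Whether the KO effect differed between EBs and ESCs was tested directly. The difference of level effects, EB minus ESC, was -1.48 ± 0.63 for Klf2 (limma adjusted p = 0.260), 0.25 ± 0.45 for Klf4 (limma adjusted p = 0.854) and 0.94 ± 0.38 for Klf5 (limma adjusted p = 0.224). None passed, against 1.5% of all entries called higher and 1.35% lower. With either the 0 h or the 8 h WT ESC library left out, the difference for Klf2 was -2.78. Both fits take the WT ESC level from its 4 h library alone (214, 8.66 read equivalents), so they are not separate checks. The other conditions kept their mean over the 3 times. For the slopes, the same difference was -0.14 ± 0.19, -0.38 ± 0.14 and -0.11 ± 0.11 for Klf2, Klf4 and Klf5 (limma adjusted p = 0.921, 0.612 and 0.881). No entry was called there by limma (0%), and 960 had an unadjusted p under 0.05.

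Between cell types, the untreated levels as deposited were lower in EBs for all 3 genes in both genotypes. The EB to ESC ratio at 0 h in KO was 0.443 (0.393 to 0.499) for Klf2, 0.457 (0.333 to 0.627) for Klf4 and 0.583 (0.438 to 0.780) for Klf5. In WT it was 0.691 (0.578 to 0.827) for Klf2, 0.126 (0.0755 to 0.200) for Klf4 and 0.307 (0.245 to 0.383) for Klf5. Klf4 was thus the gene that EBs and ESCs of WT differed in most, and the smallest WT gap was that of Klf2. With equal sums, the 0 h ratio was 0.917 (0.767 to 1.10) for Klf2 in WT and 0.861 (0.646 to 1.15) for Klf5 in KO. Both of these intervals take in equal levels, and the other 0 h intervals stayed below 1. As deposited, levels of all entries were also lower in EBs at 0 h, with a median log2 difference of -0.53 in KO and -0.29 in WT. Over the 3 times, limma gave -1.41 ± 0.45 for Klf2 (adjusted p = 0.0344), -1.15 ± 0.32 for Klf4 (adjusted p = 0.0182) and -0.85 ± 0.27 for Klf5 (adjusted p = 0.0313) in KO, where 23.2% of all entries were lower. In WT it gave 0.07 ± 0.45 for Klf2 (adjusted p = 0.920), -1.40 ± 0.32 for Klf4 (adjusted p = 0.00325) and -1.79 ± 0.27 for Klf5 (adjusted p = 0.000140), where 29.1% were lower. The shares called higher in EBs were 0.929% in KO and 3.49% in WT. The KO call of Klf2 was lost without any 1 of the 6 KO libraries (-1.56 to -1.33), that of Klf4 without 4 of them (-1.11 and -1.02) and that of Klf5 without 5 (-0.87 to -0.39). In WT, leaving out the ESC library of 0 h or 8 h sets the ESC level to that of the 4 h library alone. The WT EB mean over the 3 times is then set against that 4 h value, which compares unlike times. The call of Klf4 was then lost (-0.86), and the difference for Klf2 was 1.37. By time, the WT ratio of EB to ESC for Klf2 was 0.691 at 0 h and 1.43 (0.611 to 3.65) at 4 h. Library scale bears on these values: with equal sums, the median of all entries in the EB to ESC comparison rose by 0.84 in WT and 0.65 in KO on the log2 scale. The calls in KO and that of Klf4 in WT were then lost, at -0.72, -0.48 and -0.17 for Klf2, Klf4 and Klf5 in KO and -0.55 for Klf4 in WT. Klf5 in WT kept its call under each of the 3 other scalings.

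Some lists of cell type markers also differed between KO and WT, and others did not. Over all entries, 10.9% were called higher and 3.27% lower in KO ESCs, and 7.66% and 1.56% in KO EBs. Summed levels of 10 pluripotency markers were 45623 to 51391 in KO ESC libraries and 78707 to 88872 in WT ESC libraries, and 30137 to 38314 in KO EB libraries and 10387 to 44090 in WT EB libraries. The list went both ways in KO ESCs, with Sox2 and Utf1 higher, Pou5f1, Dppa5a and Tdgf1 lower and a median of 0.36, while 5 of the 10 were higher and 0 lower in KO EBs. None of those markers was at 0 in any library. Trophoblast markers summed to 836 to 2036 in KO ESCs and 127 to 362 in WT ESCs, and 3 of 5 tested (Krt7, Tfap2c and Ascl2) were higher in KO ESCs. Tfap2c was the largest part of the KO ESC sum, with 1538, 917 and 402 at 0, 4 and 8 h. In KO EBs 2 of the 5 (Tfap2c and Ascl2) were higher and 0 lower. Elf5, a defining trophoblast gene, was at 0 in all 6 ESC libraries, and Krt7 was at 0 in all 3 WT ESC libraries. Visceral endoderm markers summed to 374 to 553 in KO EBs and 5449 to 8936 in WT EBs, and 6 of 8 tested were lower in KO EBs. Fibroblast markers summed to 346 to 573 in KO EBs and 805 to 1375 in WT EBs, and 1 of 3 tested (Thy1) was lower in KO EBs. Blood and endothelium markers summed to 256 to 541 over all 12 libraries, with at least 1 of them at 0 in each. Between KO and WT, 0 of 3 tested blood and endothelium markers and 0 of 2 neural ones passed in either cell type. The part these markers play in the differences of Klf2, Klf4 and Klf5 was not tested.

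The mouse KLF family gave 17 matched genes, of which 14 passed the filter and Klf1, Klf14 and Klf17 did not. In ESCs 5 were higher in KO, 1 was lower and 8 did not pass, with a family median of 0.71, against 10.9% of all entries higher and 3.27% lower. Beside Klf2 and Klf4, these were Klf11, a repressor in TGF-beta signalling, at 2.02 ± 0.53, Klf13 at 1.62 ± 0.33 and Klf16 at 0.94 ± 0.30. Klf15, known for metabolic control in liver and muscle, was lower at -2.47 ± 0.75. Klf15 had 102, 49.7 and 0 in KO ESCs at 0, 4 and 8 h, against 332, 42.6 and 528 in WT ESCs, and the 8 h WT library was the highest of the 6. Klf11 had 98.1, 160 and 126 in KO ESCs, against 156, 17.3 and 0 in WT ESCs, near the floor in the last. With equal sums or median-ratio scaling Klf16 lost its call, and with ribosomal protein scaling Klf15 did. In EBs 3 were higher in KO (Klf2, Klf4 and Klf13 at 1.28 ± 0.33), 0 were lower and 11 did not pass, with a median of 0.49, against 7.66% of all entries higher and 1.56% lower. Klf13 had 320.1, 285 and 239 in KO EBs at 0, 4 and 8 h, against 305, 87.6 and 47.1 in WT EBs. Under each of the 3 other scalings, Klf13 lost its call in EBs and Klf2 and Klf4 kept theirs.

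Over time, 7 of the 14 fell in WT ESCs and 7 in WT EBs, against 5.35% and 26.7% of all entries. In KO, 0 passed in ESCs or EBs, where 0.0315% and 0% of all entries fell, so those counts say nothing about the family. The 7 in WT ESCs were the trio, Klf16 (-0.43), Klf11 (-0.53), Klf9 (-0.43) and Klf8 (-0.31). In WT EBs they were the trio, Klf16 (-0.34), Klf6 (-0.39), Klf9 (-0.46) and Klf13 (-0.31). Klf9, a target of glucocorticoid and thyroid hormone, had 985, 777 and 136 in KO ESCs at 0, 4 and 8 h, against 2284, 317 and 202 in WT ESCs. Klf6, an immediate early member of the family, had levels of 382, 218 and 131 in KO EBs and of 685, 118 and 69.7 in WT EBs. Library scale changed these counts. In WT EBs only Klf2 and Klf5 passed with equal sums or median-ratio scaling, and only Klf5 with ribosomal protein scaling. In WT ESCs Klf8 and Klf9 lost their call with equal sums or median-ratio scaling, and Klf9 with ribosomal protein scaling. No difference of slopes passed for any of the 14 in either cell type. Klf3, Klf7, Klf10 and Klf12 passed none of the tests of genotype or slope within a cell type.

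**Figure D5:**
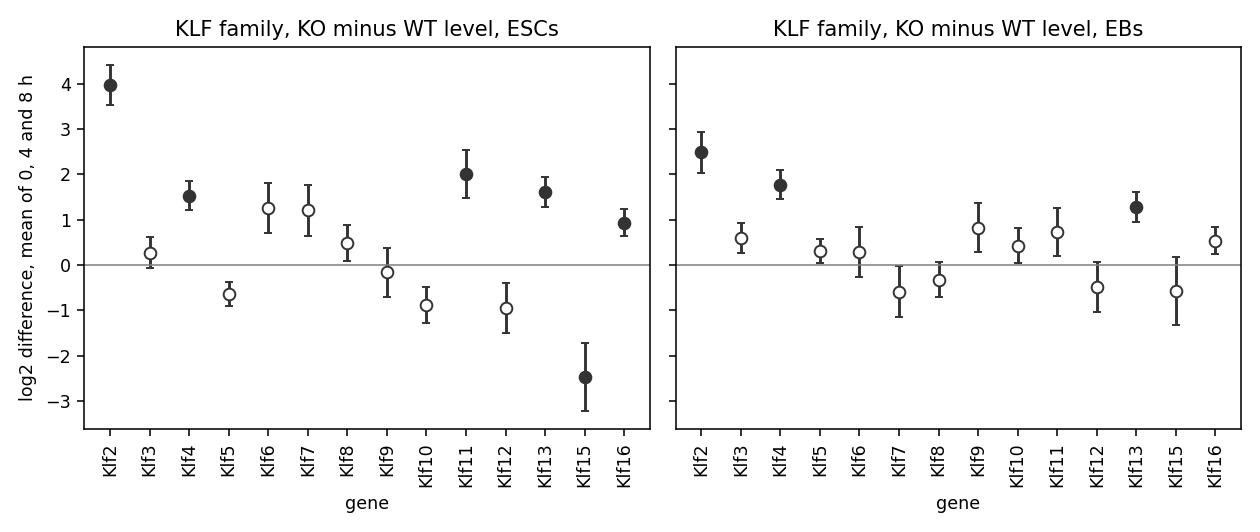
Difference in mean log2 level, KO minus WT, of the 14 tested KLF genes in ESCs and EBs, with limma standard errors; filled points passed the adjusted threshold of 0.05 and open ones did not. Klf2 (3.97 in ESCs, 2.49 in EBs) lies highest in both cell types, and Klf15 (-2.47) lies lowest in ESCs.

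Genes of the LIF, ERK and Wnt lists, pathways that act on these factors, were called at rates near those of all entries, which were 10.9% higher and 3.27% lower in KO ESCs and 7.66% and 1.56% in KO EBs. Of 11 tested genes of the LIF and Stat3 pathway, 1 was higher in KO and 0 lower in ESCs, and the same in EBs: Pim1, a kinase gene that Stat3 induces, at 1.92 ± 0.30 in ESCs and 1.47 ± 0.30 in EBs. With ribosomal protein scaling Pim1 lost its call in EBs. Of 10 MEK and ERK feedback genes, Etv4 was lower in KO ESCs (-0.78 ± 0.24) and higher in KO EBs (1.33 ± 0.24), and no other passed. Of 9 Wnt genes, Sp5, a Wnt target, was higher in KO ESCs (3.52 ± 0.91), and Cdx1 was higher in KO EBs. Sp5 was at 0 in WT ESCs at 0 and 4 h, and Cdx1 was at 0 in WT EBs at 4 and 8 h. Of 13 other naive and core factors, Sox2 was higher in KO ESCs (1.65 ± 0.44) and Pou5f1 lower (-0.97 ± 0.15). In EBs 5 were higher and 0 lower: Nanog (2.33 ± 0.23), Zfp42 (1.98), Esrrb (1.89), Sox2 (1.71) and Tfe3 (1.26). As for the trio, level calls of these lists are of means over untreated and treated libraries. At 0 h Nanog, Zfp42 and Sox2 were also higher in the KO EB library, as deposited. Esrrb was not, with 1771 in KO EBs and 1852 in WT EBs. Difference of slopes passed for 4 of those 13 in EBs (Esrrb 0.45, Nr0b1 0.38, Tfe3 0.36 and Pou5f1 0.22) and for 0 in ESCs. Over all entries, 1.19% in EBs and 0.0394% in ESCs were called with a shallower slope in KO. With each of the other 3 scalings, no slope difference of the 13 passed in EBs (0 by limma).

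Among 15 tested immediate early and other short-lived transcripts, 4 were higher in KO ESCs and 0 lower, as means over the 3 times. They were Mycn (3.73 ± 0.37), Jun (2.92 ± 0.59), Dusp1 (2.17 ± 0.47) and Mcl1 (1.52 ± 0.42). In WT ESCs Jun was at 0 at 4 and 8 h, and Dusp1 at 8 h. At 0 h the summed level of the 19 listed genes was lower in KO, as deposited. It was 10001 in KO and 13106 in WT ESCs, and 8537 in KO and 9565 in WT EBs. Over all entries, 10.9% were higher and 3.27% lower in KO ESCs, and 7.66% and 1.56% in KO EBs. In KO EBs 2 were higher, Mcl1 (1.94 ± 0.42) and Mycn (1.55 ± 0.37), and 0 passed with ribosomal protein scaling. Of these 15, 6 fell over time in WT ESCs and 9 in WT EBs, against 5.35% and 26.7% of all entries. With equal sums and with median-ratio scaling 4 fell in WT ESCs, and in WT EBs 1 or 2 did under the 3 other scalings. In KO, 0 fell in either cell type, where 0.0315% of all entries fell in ESCs and 0% in EBs. Of 15 m6A writers, readers and erasers, 7 were higher and 0 lower in KO ESCs, against 10.9% and 3.27% of all entries. The reader genes Ythdf2 (2.45 ± 0.24) and Ythdf1 (2.09 ± 0.36) were among them, and so were the writer complex genes Rbm15b (2.41 ± 0.31) and Rbm15 (2.39 ± 0.32). In KO EBs 6 were higher and 0 lower, against 7.66% and 1.56% of all entries. Under each of the 3 other scalings 4 of them passed (Alkbh5, Wtap, Rbm15 and Ythdf2), and Ythdc1 and Rbm15b did not.

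Over the 12 libraries, log2 levels of Klf2 and Klf4 had a Pearson r of 0.89, Klf4 and Klf5 of 0.78, and Klf2 and Klf5 of 0.53. These libraries share times, genotypes and scale, so the values describe patterns and carry no test. Among the nearest to Klf2 were Cxxc5 (0.99), Jagn1 (0.99), Nol12 (0.98) and Zfp444 (0.97). Nearest to Klf4 were Tacc2 (0.97), Mdfi (0.97), Acbd3 (0.96), Nup153 (0.96) and Ttc33 (0.96). Nearest to Klf5 were Gsk3a, Pdcd10, Eed, Sap30 and Tmem39a, each at 0.97. The closest of the trio to Klf2, Klf4, was outranked by 296 other entries, and 3641 outranked Klf5.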

How the data were processed

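The 12 libraries were grouped by the genotype, cell type and time in their titles. The values come from a single table deposited by the authors, with a normalized signal of 0 or more for each RefSeq transcript and library; its counting and scaling are not given in the sources available here. The submitters' processing notes name mm10 as the build, and CASAVA 1.8.2, Bowtie and Bowtie2 2.1.0 as tools. Per the labels' protocols, poly(A) ends were selected and the strand was kept. A RefSeq gene table on GRCm38.p6 gave symbols to 19531 of 19746 entries and GENCODE vM21 to another 102; 113 kept their ID. Dropping 38 identical duplicates left 19708.

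In each library at least 99.8% of values under 100 were whole multiples of a step, within 0.1 of a step. Read equivalents take 50 steps as 1 read. Whole reads were not recovered, so no count model was run.

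Tests used limma 3.58.1 (R 4.3.3) after adding 8.58 to each level, which is 1 ppm of the mean column sum, and taking log2. Entries with a mean level under 42.9 (5 ppm) were left out. The model had a mean and a slope over hours for each of 4 conditions (8 coefficients, 4 residual degrees of freedom) and a variance prior with a trend. It was tested on simulated data. Log2 differences understate changes of low levels. With 1 library per group, p-values measure scatter of libraries around lines, not variation between cultures, and whether the 3 times of a condition share a culture is not stated. Ratios, shares and intervals were computed in Python 3.11.15 with scipy 1.17.1: Poisson for levels, conditional binomial for ratios and shares.

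Alternatives were other pseudocounts (0.5 and 5 ppm), no filter, equal column sums, median-ratio scaling, scaling to 87 ribosomal protein entries, no variance trend, differences read at 0 or 8 h, additive time terms, and leaving out each library. Added after seeing the data were subtraction of a silent-family background, fits on the 6 libraries of 1 cell type, and a step in place of a line.

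The members and the gene lists were chosen with earlier results of these data known. Klf2, Klf4, Klf5 and Mettl3 were always named. Of the KLF family the other tested members were named, and of each other list up to 4 called members with the greatest absolute difference; Names outside that rule (Tfe3 in EBs, Elf5, and genes listed for keeping or losing a call under a scaling) were chosen after their values were seen. For likeness, the 5 named entries with the highest Pearson r over the 12 libraries were taken, leaving out Rik and Gm names; 1 of them is not reported here.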

Additional observations from a re-analysis of the deposited data

How the results depend on the processing

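Of 585 values of the 3 genes under alternatives, 487 kept direction and side of the threshold, 71 lost a call, 5 gained one and 22 changed sign. The cause was not tested in any case. No paired analysis was possible because each group has 1 library and the labels number no replicates. All differences are log2.

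Read at 0 h, KO minus WT was 1.92 (Klf2) and -0.10 (Klf4) in ESCs and 1.00 (Klf2), 1.65 (Klf4) and -0.37 (Klf5) in EBs. EB minus ESC was then -0.32 for Klf2 in WT, and -1.24, -1.03 and -0.55 for Klf2, Klf4 and Klf5 in KO. Read at 8 h, KO minus WT was 0.46 for Klf5 in ESCs, and EB minus ESC was -0.016 for Klf4 in WT and -1.58, -1.27 and -1.15 in KO. With additive time terms, calls were lost for Klf4 in ESCs (1.53, limma adjusted p = 0.0560) and for EB minus ESC in KO (-1.41, -1.15, -0.85). Without the variance trend they were lost for those same 3 EB minus ESC values, for Klf2 in EBs (2.49) and for the WT ESC slope of Klf2 (-0.67). With no filter, Klf2 lost EB minus ESC in KO (-1.41).

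With equal sums, EB minus ESC lost its call for Klf4 in WT (-0.55) and for all 3 genes in KO (-0.72, -0.48, -0.17). The Klf4 slope in WT EBs was -0.17, and its slope difference in EBs changed sign (-0.081). Median-ratio scaling gave -0.76, then -0.73, -0.49 and -0.18, then -0.17 and -0.058 for the same values. Ribosomal protein scaling gave -0.56, then -1.03, -0.78 and -0.48, then -0.16 and -0.12. It also changed the sign of Klf5 in EBs (-0.12) and of the level effect of Klf4 between cell types (-0.22), and the WT EB slope of Klf2 lost its call (-0.43). A pseudocount of 5 ppm turned the EB slope difference of Klf4 to -0.0094. With a step in place of a line (4 and 8 h over 0 h), calls were lost for Klf5 in WT ESCs (-2.53) and for Klf4 (-1.94) and Klf5 (-2.67) in WT EBs, and the Klf5 slope effect between cell types changed sign (0.022). The subtracted background and the fits on 1 cell type changed no call of these genes.

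Leaving out 1 library at a time changed a call or sign over these ranges. Level differences without a 0 h or 8 h library take that condition's level from its 4 h library alone. KO minus WT in ESCs was 1.26 to 2.07 (Klf4). In EBs it was 2.05 to 3.36 (Klf2), 1.68 to 1.96 (Klf4). EB minus ESC in WT was -0.80 to 1.37 (Klf2), -1.67 to -0.86 (Klf4). In KO it was -1.56 to -1.33 (Klf2), -1.22 to -1.02 (Klf4), -1.08 to -0.39 (Klf5). The level effect between cell types was -2.78 to -0.61 (Klf2), -0.30 to 0.52 (Klf4). Slopes in KO ESCs were -0.34 to 0.0029 (Klf5). In WT ESCs they were -1.16 to -0.18 (Klf2), -0.85 to -0.44 (Klf4), -0.51 to -0.38 (Klf5). In WT EBs they were -0.90 to -0.25 (Klf2), -0.37 to -0.23 (Klf4), -0.51 to -0.32 (Klf5). The slope difference in ESCs was 0.025 to 1.00 (Klf2). In EBs that difference was -0.039 to 0.10 (Klf4). Its change between cell types was -0.63 to 0.35 (Klf2), -0.28 to 0.067 (Klf5).

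Counts over all entries moved too. The WT EB slopes gave 3410 calls as deposited and 246 to 304 under the 3 other scalings. EB minus ESC in KO gave 3066 calls as deposited and 166 to 617 under them, and in WT 4145 and 1799 to 2024. KO minus WT read at 0 h gave 47 calls in ESCs and 56 in EBs, against 1797 and 1171 over the 3 times. Without the variance trend they were 1047 and 353. The EB slope difference gave 151 calls, 0 to 5 under the other scalings and 305 with the background subtracted. The WT ESC slopes gave 700 calls, and 104 with a step. Depth limits WT levels at 4 and 8 h, where Klf2 and Klf4 rest on under 20 read equivalents.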
